A study of Mus musculus with 4 samples.

Results

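The 10 genes described here encode the core transcription factors of the B lineage, namely Pax5, Ebf1, Tcf3, Spi1, Spib, Ikzf1, Ikzf3, Foxo1, Pou2af1 and Pou2f2. They were chosen by name, by a rule that uses no measured value but was set with earlier results of these data known, and are 10 of the 34866 genes in the deposited table. All 10 were above the limit for testing, which was 1 TPM or more in 2 or more libraries and left 11339 genes in all. TPM gives a gene's transcripts per fixed total of a library, corrected for length. The libraries came from B220+ IgM+ splenocytes of 2 λ-MYC Tom+/ki mice with lymphoma (tumors #1 and #2), sorted into cells with and without the Tomato protein, so that each mouse gave 1 Tom- and 1 Tom+ library. Every cell carried the λ-MYC transgene, a human MYC gene under Igλ regulatory sequences, in the heterozygous state (+/TG). Each also carried 1 knock-in allele of a Cre (+/ki) and 1 of R26tdTom (+/ki). No library came from a mouse without the transgene. The reporter is switched on by Cre and stays on, so Tom+ marks cells in which Cre has been active at any time. The mice were killed when moribund, and the sources used here do not give the ages of these 2 animals. Each tumor is 1 mouse, and its libraries are fractions of the same spleen.

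B cell identity is built in steps. E2A (Tcf3) and Foxo1 act in early progenitors and help to switch on Ebf1, and Ebf1 and Pax5 then activate each other and the genes of the B cell receptor complex, while Pax5 represses genes of other lineages. The ETS factors PU.1 (Spi1) and Spi-B (Spib), the zinc finger proteins Ikaros (Ikzf1) and Aiolos (Ikzf3), and the octamer factor Oct-2 (Pou2f2) with its coactivator OBF-1 (Pou2af1) act with them through to the mature B cell. The comparisons asked whether Tom+ lymphoma cells hold these factors at other levels than Tom- cells of the same mouse, and how far the levels differ between the tumors.

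The sorted cells expressed the markers of B cells. Ighm was between 1255 and 3652 TPM, Cd79a between 120 and 346 TPM, Cd79b between 139 and 437 TPM, Ptprc between 47.8 and 90.6 TPM and Ms4a1 between 20.5 and 263 TPM. The 11 T cell markers summed to between 6.18 and 22.5 TPM, the 12 macrophage and monocyte markers to between 2.72 and 9.21 TPM, the 7 granulocyte markers to between 0.0628 and 6.35 TPM, the 8 erythroid markers to between 0.900 and 21.5 TPM and the 6 NK cell markers to between 0.193 and 0.978 TPM. Of the macrophage and monocyte list, Cebpa, Fcgr1, C1qa and C1qb were listed at 0 in all 4 libraries, while Cd68 was between 1.92 and 6.41 TPM, higher in Tom+ cells of both mice and in tumor #2, and Lyz2, Itgam and Cebpb reached 1.41, 1.78 and 1.41 TPM in tumor #2. Also listed at 0 in all 4 libraries were Ncr1, Nkg7, Gzma and Gzmb of NK cells. The 7 plasma cell markers summed to 176 (Tom-) and 179 TPM (Tom+) in tumor #1 and to 129 (Tom-) and 341 TPM (Tom+) in tumor #2, where Jchain alone reached 209 TPM in Tom+ cells. Mzb1 was at 145 (Tom-) and 144 TPM (Tom+) in tumor #1 and 94.8 (Tom-) and 80.6 TPM (Tom+) in tumor #2. Irf4 was between 14.6 and 29.4 TPM and Xbp1 between 10.6 and 21.2 TPM. Sdc1 stayed at or below 1.95 TPM, Tnfrsf17 at or below 0.778 TPM and Prdm1 at or below 0.570 TPM. TPM keeps no record of read numbers, so the depth is unknown. Genes annotated as pseudogenes took between 23.4% and 31.3% of the TPM, more in tumor #1 than in tumor #2, and mitochondrial genes between 6.61% and 15.6%.

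**Figure D1:**
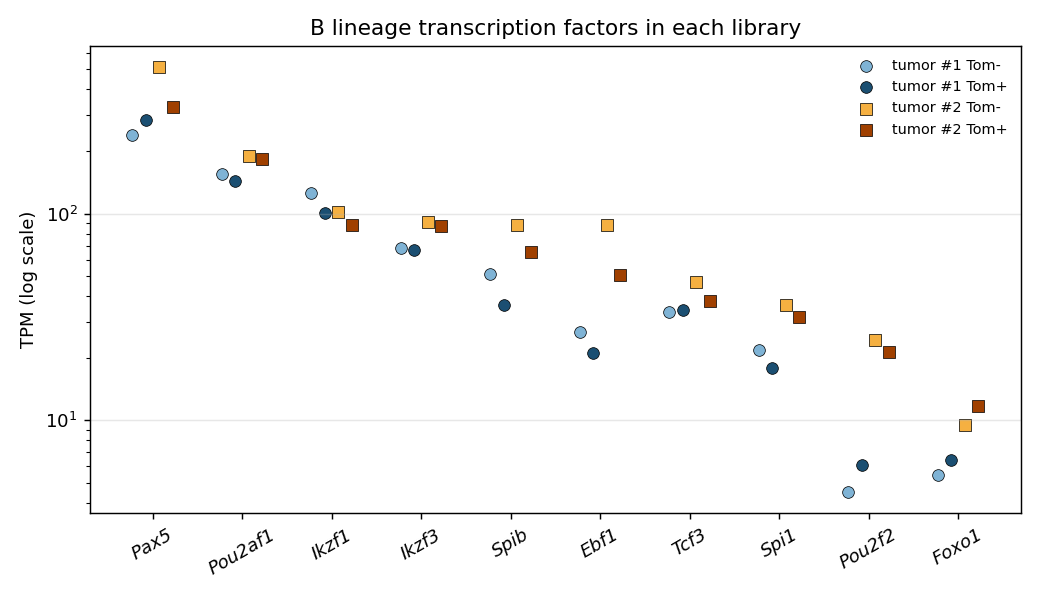
TPM of each B lineage factor (log axis) in the 4 libraries, with circles for tumor #1 and squares for tumor #2, lighter for Tom- and darker for Tom+ cells, and genes ordered by their mean. Pax5 and Pou2af1 stand above the others in every library, and the squares lie above the circles for each gene except Ikzf1.

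Pax5 was the most abundant of the factors and Pou2af1 the next in each of the 4 libraries. By the mean ± SD over the libraries (n = 4, from 2 mice) the order was Pax5 at 341 ± 119 TPM, Pou2af1 at 168 ± 21.9, Ikzf1 at 104 ± 15.8, Ikzf3 at 78.4 ± 12.6, Spib at 60.1 ± 22.1, Ebf1 at 46.6 ± 30.2, Tcf3 at 38.0 ± 5.96, Spi1 at 27.0 ± 8.52, Pou2f2 at 14.1 ± 10.2 and Foxo1 at 8.29 ± 2.88 TPM. Only Pax5 and Pou2af1 were separated from the next gene in the order by ranges that did not overlap. The order within each library was the same in both Tom fractions of a tumor. It differed between the tumors at 2 places, since Tcf3 exceeded Ebf1 and Foxo1 exceeded Pou2f2 in tumor #1, and the reverse held in tumor #2. Among the 11339 tested genes, Pax5 ranked between 271 and 506 by TPM in the 4 libraries and Foxo1 between 5913 and 7260.

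The difference between Tom+ and Tom- cells was tested with limma on log2(TPM + 1) with the mouse as a block, and all tested genes were adjusted together (Benjamini-Hochberg). At an adjusted p-value below 0.05, 0 of the 10 factors and 0 of all 11339 genes (0%) passed. Before adjustment 1 factor, Spib, and 530 genes (4.67%) had a p-value below 0.05. With 2 pairs the exact permutation test cannot go below a p-value of 0.5. Ebf1, Spi1, Spib, Ikzf1, Ikzf3 and Pou2af1 were lower in Tom+ cells of both mice, 6 of 10 factors against 29.5% of all tested genes. Foxo1 was higher in both, 1 of 10 against 21.6%, and Pax5, Tcf3 and Pou2f2 had opposite signs in the mice, 3 of 10 against 48.8%. The 6 became 5 with immunoglobulin genes left out of the TPM total, where Pou2af1 differed by -0.12 and 0.023 in tumors #1 and #2, and 4 when only protein-coding nuclear genes outside the immunoglobulin loci were kept, where the differences were -0.095 and 0.055 for Pou2af1 and -0.024 and 0.031 for Ikzf3. The median of the log2 differences over the factors was -0.17, from -0.071 in tumor #1 and -0.21 in tumor #2, beside a median of -0.033 over all tested genes. Among the B cell markers, Ms4a1 (-0.49), Ptprc (-0.35), Cd79b (-0.25) and Cd79a (-0.23) were lower in Tom+ cells of both mice as well, with none past the adjusted threshold, and Ighm had -0.088 in tumor #1 and 0.74 in tumor #2. Their part in the differences of the factors was not tested. In bulk libraries, fewer cells with a transcript and less of the transcript per cell cannot be told apart.

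**Figure D2:**
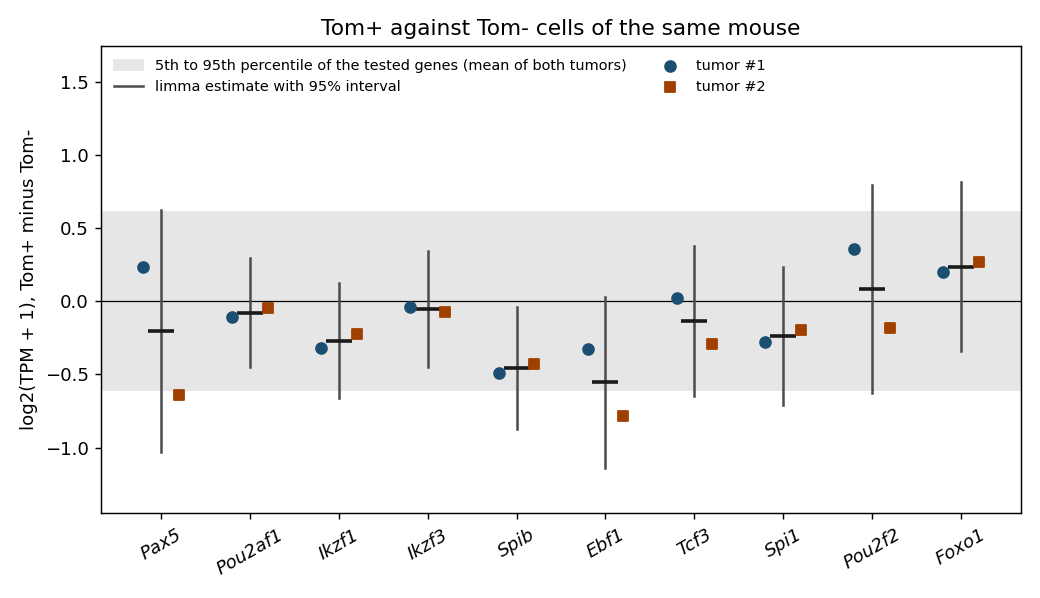
Difference of log2(TPM + 1) between Tom+ and Tom- cells of the same mouse for each factor, with circles for tumor #1, squares for tumor #2, the limma estimate as a short bar with its 95% interval, and the 5th to 95th percentile of the mean difference of all tested genes in grey. Spib is the one factor whose interval lies below 0, from -0.88 to -0.041 before any adjustment, and Pax5 has its tumors farthest apart.

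Tcf3, which encodes the E2A proteins, was at 33.6 (Tom-) and 34.2 TPM (Tom+) in tumor #1 and 46.5 (Tom-) and 37.8 TPM (Tom+) in tumor #2. These were the most even levels of the early factors, and the tumors did not overlap. The log2 difference between Tom+ and Tom- cells was -0.13 (SE 0.17, adjusted p = 0.948 from limma), with 0.022 in tumor #1 and -0.29 in tumor #2. Tcf3 (ENSMUSG00000020167) lies on chromosome 10, 80409514 to 80433647 of GRCm38.

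Foxo1, a forkhead factor that is held out of the nucleus when AKT is active, had the lowest mean level, although Pou2f2 was lower in tumor #1. It was at 5.46 (Tom-) and 6.44 TPM (Tom+) in tumor #1 and 9.54 (Tom-) and 11.7 TPM (Tom+) in tumor #2. It was the only factor with higher values in Tom+ cells of both mice, by 18.0% and 22.9% in TPM, and its log2 difference was 0.24 (SE 0.19, adjusted p = 0.936). The tumors did not overlap. Foxo1 (ENSMUSG00000044167, chromosome 3, 52268336 to 52353221) shares exonic sequence with an antisense gene, Gm20402, and whether the quantification used strand is not given in the sources used here.

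Ebf1, early B cell factor 1 (ENSMUSG00000057098, chromosome 11, 44617317 to 45008091), was at 26.9 (Tom-) and 21.3 TPM (Tom+) in tumor #1 and 87.7 (Tom-) and 50.5 TPM (Tom+) in tumor #2. Tom+ cells were the lower fraction in each mouse, by 20.9% in tumor #1 and 42.4% in tumor #2, and both values of tumor #2 exceeded both of tumor #1. The log2 difference between Tom+ and Tom- cells, -0.55 (SE 0.19, unadjusted p = 0.0577, adjusted p = 0.936 from limma), was the lowest of the 10 factors, and 6.09% of tested genes had a lower one.

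Pax5, the commitment factor of the lineage (ENSMUSG00000014030, chromosome 4, 44524757 to 44710487), was at 241 (Tom-) and 284 TPM (Tom+) in tumor #1 and 511 (Tom-) and 328 TPM (Tom+) in tumor #2. The Tom- library of tumor #2 stood apart from the other 3, which ranged from 241 to 328 TPM. Tom+ cells were 18.1% higher than Tom- cells in tumor #1 and 35.8% lower in tumor #2. The log2 differences of 0.24 and -0.64 gave a mean of -0.20 (SE 0.27, adjusted p = 0.949), with a 95% interval from -1.03 to 0.63. Pax5 shares exonic sequence with an antisense gene, Gm12462, and a gene model on the opposite strand, 5730488B01Rik.

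The ETS factors were lower in the Tom+ library of each mouse. Spi1 encodes PU.1, which macrophages express as well (ENSMUSG00000002111, chromosome 2, 91082390 to 91115756), and was at 21.9 (Tom-) and 17.9 TPM (Tom+) in tumor #1 and 36.3 (Tom-) and 31.7 TPM (Tom+) in tumor #2. Spib encodes Spi-B, a close relative (ENSMUSG00000008193, chromosome 7, 44525993 to 44532071), and was at 51.2 (Tom-) and 36.2 TPM (Tom+) in tumor #1 and 88.0 (Tom-) and 65.2 TPM (Tom+) in tumor #2. For both genes the libraries of the tumors did not overlap. Spib was lower in Tom+ cells by 29.4% in tumor #1 and by 25.9% in tumor #2. Its log2 difference of -0.46 (SE 0.14) had an unadjusted p-value of 0.0393 and an adjusted p-value of 0.936 from limma. For Spi1 the log2 difference was -0.24 (SE 0.15, adjusted p = 0.936), from -0.28 and -0.19.

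Spib and Pou2af1 are shown with the RefSeq sequence before their transcription starts (GRCm38.p6), because these were the 2 of 8 genes with a window that held the octamer core TGCAAAT, which is in capitals. RefSeq windows were at hand for 8 of the 10 factors, with 10 starts in all, and not for Spi1 and Ikzf3. Each window covers 250 bases before the start, and the core, on either strand, is in 3.56% of all 32851 windows. The full octamer ATGCAAAT, in 1.6% of all windows, was in 0 of the factors' windows. The Spib window is chr7:44532072-44532321 on the minus strand and the Pou2af1 window chr9:51213440-51213689 on the plus strand. Both lie outside the annotated exons of their own gene, and exons of other genes were not checked. The core begins 248 bases before the Spib start and 231 bases before the Pou2af1 start. A match of letters is a description and not a binding site.
Spib: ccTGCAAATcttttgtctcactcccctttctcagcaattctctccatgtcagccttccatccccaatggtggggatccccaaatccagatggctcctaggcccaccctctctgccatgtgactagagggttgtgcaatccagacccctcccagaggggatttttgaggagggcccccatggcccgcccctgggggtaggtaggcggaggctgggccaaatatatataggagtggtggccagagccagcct
Pou2af1: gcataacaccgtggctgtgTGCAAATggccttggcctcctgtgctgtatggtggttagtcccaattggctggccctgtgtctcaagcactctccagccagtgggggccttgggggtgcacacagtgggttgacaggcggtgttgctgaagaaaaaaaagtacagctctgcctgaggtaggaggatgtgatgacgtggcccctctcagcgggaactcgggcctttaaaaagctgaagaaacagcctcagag

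The other motifs searched on both strands were GAGGAA for PU.1 and Spi-B (23.3% of all windows), TGGGAA for Ikaros (21.6%), CAGGTG for E2A (17.2%), GTAAACA for FOXO factors (3.17%) and the palindromic EBF1 consensus (0.779%). Ebf1 and Pou2f2 held GAGGAA, Ebf1 also held TGGGAA, Foxo1 held the EBF1 consensus, and CAGGTG and GTAAACA were in 0 windows of these genes. The windows of Ebf1 and Foxo1 are shown because Ebf1 had the lowest log2 difference between Tom+ and Tom- cells and Foxo1 was the only gene of the group with the EBF1 consensus. The Ebf1 window, chr11:44619978-44620227 on the plus strand, lies within the gene and outside its annotated exons, and belongs to the downstream one of the 2 starts listed. Its capitals mark TTCCCA and TTCCTC, the reverse complements of the Ikaros and PU.1 letters. The Foxo1 window is chr3:52268087-52268336 on the plus strand, has its last base in the first exon and shows the EBF1 consensus in capitals.
Ebf1: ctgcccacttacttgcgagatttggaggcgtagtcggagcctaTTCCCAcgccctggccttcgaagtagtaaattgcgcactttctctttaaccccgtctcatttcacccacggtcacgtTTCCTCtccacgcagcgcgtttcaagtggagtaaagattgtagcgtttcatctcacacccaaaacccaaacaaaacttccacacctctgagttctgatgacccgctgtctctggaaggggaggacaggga
Foxo1: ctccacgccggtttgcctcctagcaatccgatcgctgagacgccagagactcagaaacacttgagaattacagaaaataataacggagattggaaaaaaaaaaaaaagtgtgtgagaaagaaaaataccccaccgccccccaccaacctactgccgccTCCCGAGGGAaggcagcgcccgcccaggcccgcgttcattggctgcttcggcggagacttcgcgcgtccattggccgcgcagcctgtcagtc

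Ikaros and Aiolos, zinc finger factors that recruit chromatin remodelers to genes of lymphocytes, differed in their pattern. Ikzf1 (ENSMUSG00000018654, chromosome 11, 11685003 to 11772926) was at 126 (Tom-) and 101 TPM (Tom+) in tumor #1 and 102 (Tom-) and 87.7 TPM (Tom+) in tumor #2. It was the one factor whose tumors overlapped and the one with the lower mean in tumor #2. Tom+ cells were lower by 19.9% in tumor #1 and 14.3% in tumor #2, with a log2 difference of -0.27 (SE 0.13, unadjusted p = 0.122, adjusted p = 0.936 from limma). Ikzf3 (ENSMUSG00000018168, chromosome 11, 98464902 to 98546031) was at 68.5 (Tom-) and 66.8 TPM (Tom+) in tumor #1 and 91.3 (Tom-) and 87.0 TPM (Tom+) in tumor #2. Tom+ cells were lower by 2.50% in tumor #1 and 4.76% in tumor #2, and the log2 difference was -0.053 (SE 0.13, 95% interval from -0.45 to 0.35, adjusted p = 0.974).

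Pou2f2 encodes Oct-2, which binds the octamer of immunoglobulin promoters (ENSMUSG00000008496, chromosome 7, 25087344 to 25179726). It was at 4.50 (Tom-) and 6.05 TPM (Tom+) in tumor #1 and 24.3 (Tom-) and 21.3 TPM (Tom+) in tumor #2, so that each tumor formed its own cluster. Between Tom+ and Tom- cells the log2 difference was 0.36 in tumor #1 and -0.18 in tumor #2, with a mean of 0.087 (SE 0.23, adjusted p = 0.977). Exonic sequence is shared with the microRNA gene Mir6537. Pou2af1, the coactivator that Oct-2 and Oct-1 recruit (ENSMUSG00000032053, chromosome 9, 51213708 to 51240080), was at 155 (Tom-) and 144 TPM (Tom+) in tumor #1 and 190 (Tom-) and 184 TPM (Tom+) in tumor #2. Its Tom fractions lay close together, with a log2 difference of -0.076 (SE 0.12, 95% interval from -0.45 to 0.30, adjusted p = 0.954), while the tumors did not overlap.

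For 9 of the 10 factors, all but Ikzf1, both libraries of tumor #2 lay above both of tumor #1, beside 44.8% of all tested genes. The reverse held for 0 of the 10 factors and 23.7% of genes. With 1 mouse per tumor there is no test of this difference. The B cell markers Ms4a1, Cd79a, Cd79b, Ptprc and Ighm also lay higher in both libraries of tumor #2, by 0.56 (Ptprc) to 3.12 (Ms4a1) on the log2 scale. The summed macrophage and monocyte markers, whose cells express Spi1 as well, were at 2.72 (Tom-) and 5.50 TPM (Tom+) in tumor #1 and 9.21 (Tom-) and 8.68 TPM (Tom+) in tumor #2, and the T cell markers were at 9.17 (Tom-) and 6.18 TPM (Tom+) and at 22.5 (Tom-) and 19.4 TPM (Tom+). The largest of the T cell markers in each library was Lck. It was at 7.21 (Tom-) and 4.25 TPM (Tom+) in tumor #1 and 10.6 (Tom-) and 11.5 TPM (Tom+) in tumor #2. Cd3d was at 0.329 (Tom-) and 0.0513 TPM (Tom+) in tumor #1 and 7.77 (Tom-) and 2.09 TPM (Tom+) in tumor #2. Zap70 reached 3.29 TPM and Cd3g 1.35 TPM, both in Tom+ cells of tumor #2. Cd3e stayed at or below 0.0687 TPM, and Cd4, Cd8a, Cd247, Tcf7, Gata3 and Bcl11b at or below 0.528 TPM. The erythroid markers were lower in tumor #2, at 0.900 (Tom-) and 1.14 TPM (Tom+) against 21.5 (Tom-) and 17.6 TPM (Tom+). Mitochondrial genes took 6.61% (Tom-) and 8.67% (Tom+) of the TPM in tumor #1 and 14.4% (Tom-) and 15.6% (Tom+) in tumor #2. Whether other cells or the mitochondrial share have a part in the differences between the tumors was not tested. When the variation of log2(TPM + 1) over the 4 libraries was divided into squared parts, the tumor's part in these 9 factors ran from 64.2% for Pax5 to 98.0% for Ikzf3. With 2 libraries per tumor, the tumor has the largest part exactly where the tumors do not overlap, here for 68.5% of all tested genes, so this is no separate evidence. Ikzf1 had 44.6% for the tumor and 53.6% for Tom status.

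Pou2f2 and Ebf1 were the factors at least 2-fold apart between the tumors on the log2(TPM + 1) scale, 2 of 10 beside 16.2% of tested genes higher by that margin in tumor #2 and 5.1% lower. Pou2f2 was 5.40 times as high in tumor #2 as in tumor #1 in Tom- cells and 3.53 times in Tom+ cells, a mean log2 difference of 1.93 ± 0.38 (SD over the Tom fractions, n = 2), and 5.1% of tested genes had a larger one. Ebf1 was 3.26 times as high in Tom- cells and 2.37 times in Tom+ cells (log2 difference 1.44 ± 0.33). Then came Spib with 0.80 ± 0.045, Spi1 with 0.75 ± 0.061, Foxo1 with 0.74 ± 0.048 and Pax5 with 0.65 ± 0.62. For Pax5 the difference was carried by Tom- cells, at 1.08, against 0.21 in Tom+ cells. Ikzf3 (0.39 ± 0.024), Pou2af1 (0.32 ± 0.043) and Tcf3 (0.30 ± 0.22) were nearer to the median of all tested genes, which was itself 0.20 higher in tumor #2. Ikzf1 was 0.25 ± 0.069 lower in tumor #2 and so 0.45 below that median.

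The scaling of the libraries bears on these small differences. With trimmed-mean scaling the median of all tested genes was -0.096 between the tumors, 29.8% of genes were higher and 39.3% lower in tumor #2 without overlap, and 6 of the 10 factors lay above. Pax5, Tcf3 and Pou2af1 then overlapped, at 0.31, -0.029 and -0.019, and Ikzf1 lay below without overlap at -0.58. With quantile normalization 28.7% of genes were higher and 38.6% lower, 8 factors lay above, Tcf3 overlapped and Ikzf1 lay below. Pou2f2 (1.63 and 1.59) and Ebf1 (1.11 and 1.25) stayed more than 2-fold apart under trimmed-mean scaling and quantile normalization. Relative to the median of all genes, Ikzf1 was lower and the other 9 higher under each of the 4 rescalings tried. Only quantile normalization does more than multiply each library by a constant. The others leave a difference from that median nearly unchanged by construction, so their agreement is no separate evidence.

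**Figure D3:**
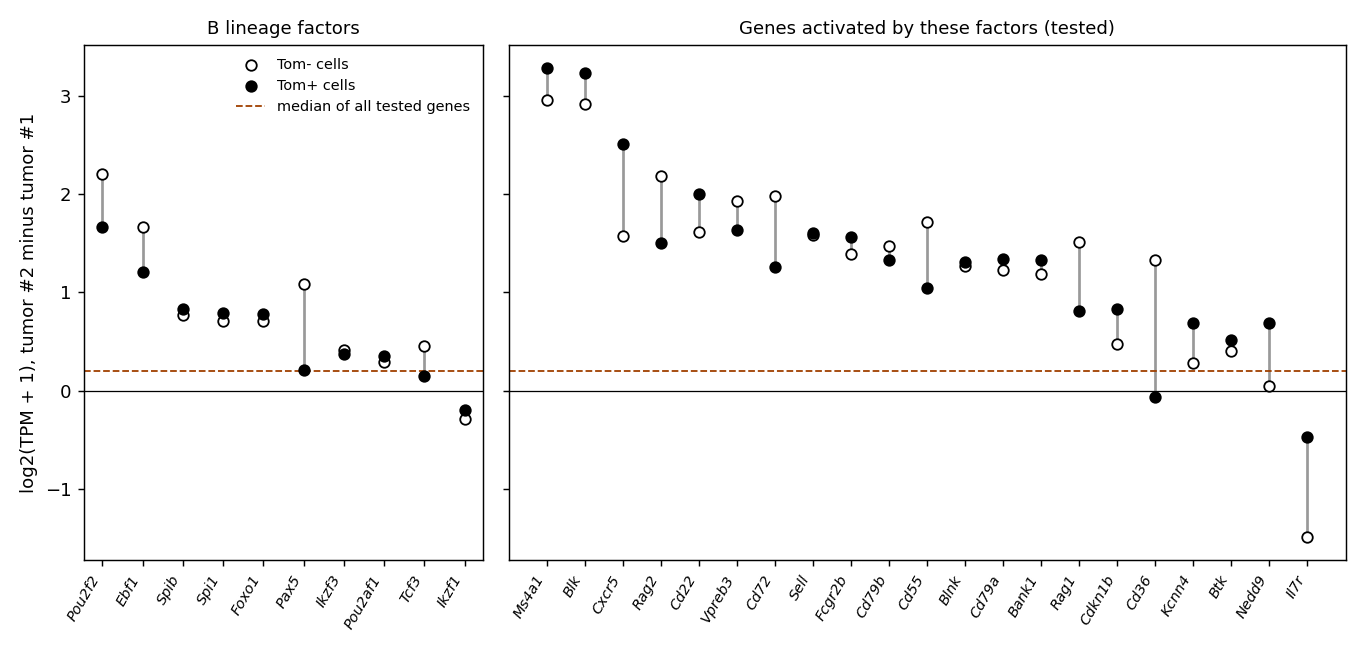
Difference of log2(TPM + 1) between tumor #2 and tumor #1 for the 10 factors (left) and for 21 of the 22 tested genes that they activate (right), with open points for Tom- and filled points for Tom+ cells and the median of all tested genes dashed. Pou2f2 and Ebf1 lead the factors, Ms4a1 and Blk lead the genes they activate, and Ikzf1 and Il7r are the genes with both points below 0.

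A ratio within a library is not altered by a scaling factor, although quantile normalization moved the mean ratio of Pou2af1 to Pou2f2 from 18.7 to 16.6 and that of Pax5 to Ebf1 from 8.66 to 8.39. The ratio of Spib to Spi1 was 2.33 (Tom-) and 2.02 (Tom+) in tumor #1 and 2.42 (Tom-) and 2.06 (Tom+) in tumor #2, the most even of the 4 ratios taken, and the lower value was that of Tom+ cells in each mouse. Ikzf3 over Ikzf1 was 0.545 and 0.663 in tumor #1 and 0.892 and 0.991 in tumor #2, so that Aiolos transcripts came nearer to those of Ikaros in tumor #2, and Tom+ cells had the higher ratio in each mouse. Pou2af1 was 34.5 (Tom-) and 23.8 (Tom+) times as high as Pou2f2 in tumor #1 and 7.79 (Tom-) and 8.60 (Tom+) times in tumor #2. Pax5 over Ebf1 was 8.94 and 13.3 in tumor #1 and 5.83 and 6.50 in tumor #2, again higher in Tom+ cells of each mouse. For the last 3 ratios the tumors did not overlap. The share over ratios of other gene pairs was not taken, and the tumors did not overlap for 68.5% of single tested genes.

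**Figure D4:**
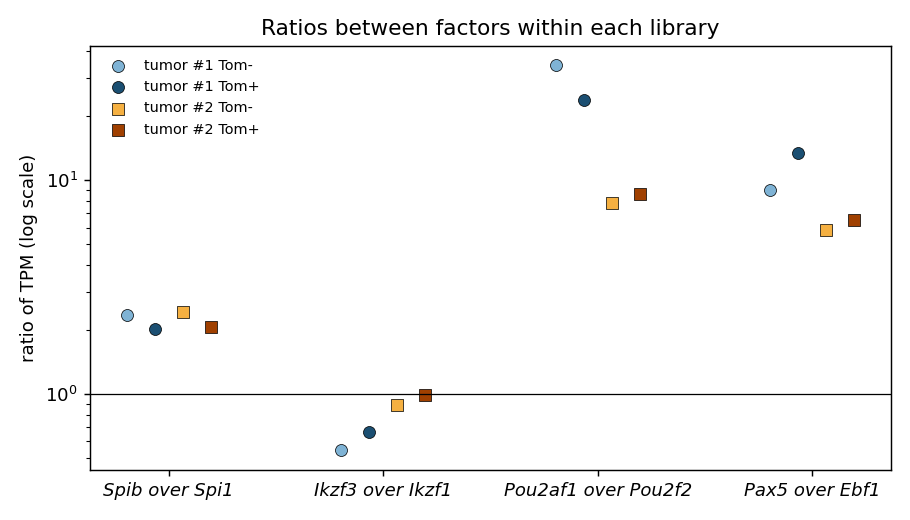
Ratio of TPM between factors (log axis) in each of the 4 libraries, with circles for tumor #1 and squares for tumor #2, lighter for Tom- and darker for Tom+ cells. Spib over Spi1 lies between 2.02 and 2.42 in every library. For the other ratios the tumors do not overlap, as was so for 68.5% of single tested genes.

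Most of the tested genes that these factors activate were higher in tumor #2. The list holds 26 genes, such as the receptor chains Cd79a and Cd79b, and 22 were above the limit for testing. In 20 of the 22, both libraries of tumor #2 lay above both of tumor #1 (44.8% of all tested genes), 16 of them at least 2-fold (16.2%), and the median log2 difference was 1.34, beside 0.69 for the 10 factors and 0.20 for all tested genes. Il7r, Nedd9, Btk, Kcnn4, Cdkn1b and Cd36 lay below the median of the factors. With trimmed-mean scaling 18 of 22 lay above (29.8% of all genes) and the medians were 1.01 and 0.37. Ms4a1, which encodes CD20, was at 32.9 (Tom-) and 20.5 TPM (Tom+) in tumor #1 and 263 (Tom-) and 209 TPM (Tom+) in tumor #2. Blk, a Src family kinase of B cells, was at 7.78 (Tom-) and 5.15 TPM (Tom+) in tumor #1 and 65.3 (Tom-) and 56.6 TPM (Tom+) in tumor #2. Il7r, the receptor of a cytokine of early B cells, was the only gene of the list that lay lower in tumor #2 without overlap (log2 difference -0.98), and was named after its value was seen. Cr2 and Fcer2a, markers of mature naive B cells, and Igll1 and Vpreb1, which encode the surrogate light chain, were below the limit for testing, and Igll1 was listed at 0 in every library.

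Between Tom+ and Tom- cells, 10 of these 22 genes were lower in both mice (29.5% of all tested genes) and 2 higher (21.6%), with a median log2 difference of -0.12, and 0 of 22 passed an adjusted p-value of 0.05. Before adjustment 2 of the 22 had a p-value below 0.05 (4.67% of all genes), Ms4a1 (log2 difference -0.49, SE 0.16) and Vpreb3, which encodes a chaperone-like relative of the surrogate light chain (-0.56, SE 0.15), both with an adjusted p-value of 0.936 from limma. The largest difference was that of Cd36, an Oct-2 target, at 1.28 (Tom-) and 0.699 TPM (Tom+) in tumor #1 and 4.74 (Tom-) and 0.620 TPM (Tom+) in tumor #2 (-1.12, SE 0.46, adjusted p = 0.936).

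The list of relatives, partners and inhibitors of the factors had 21 of its 29 genes above the limit for testing. In Tom+ cells of both mice 7 were lower (29.5% of all tested genes) and 5 higher (21.6%), shares near those of all genes, and the median log2 difference was -0.069. Before adjustment 3 of the 21 had a p-value below 0.05 (4.67% of all genes), Pou2f1, Irf8 and Tle3, all lower in Tom+ cells of both mice. Pou2f1, the widely expressed octamer factor Oct-1, was at 14.3 (Tom-) and 4.68 TPM (Tom+) in tumor #1 and 28.6 (Tom-) and 16.5 TPM (Tom+) in tumor #2. It was lower in Tom+ cells of both mice, with a log2 difference of -1.10 (SE 0.25, unadjusted p = 0.0195, adjusted p = 0.936 from limma), where Pou2f2 had 0.087. Irf8, a partner of PU.1 on composite sites, was at 25.2 (Tom-) and 18.9 TPM (Tom+) in tumor #1 and 71.6 (Tom-) and 45.5 TPM (Tom+) in tumor #2. Its log2 difference between Tom+ and Tom- cells was -0.52 (SE 0.16, adjusted p = 0.936), and tumor #2 was higher by 1.35. Tle1, a Groucho corepressor, stood at 6.70, 6.07 and 7.61 TPM in 3 libraries and at 0.954 TPM in Tom+ cells of tumor #2, which alone set its log2 difference of -1.13 (SE 0.60, adjusted p = 0.936). In this list 11 of 21 genes lay higher (44.8% of all tested genes) and 1 lower (23.7%) in tumor #2 without overlap, which became 4 (29.8%) and 6 (39.3%) with trimmed-mean scaling. Zfp521 and Zfp423, relatives of each other that bind EBF1, were listed at 0 in every library.

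Among 17 tested genes of 21 other B cell transcription factors, 5 were lower in Tom+ cells of both mice (29.5% of all tested genes) and 3 higher (21.6%), shares near those of all genes, and 0 of 17 had a p-value below 0.05 before adjustment (4.67%). The median log2 difference of -0.0067 turned to 0.0027 with quantile normalization. The largest difference was that of Myb, a factor of progenitors and cycling lymphocytes, at 38.4 (Tom-) and 82.0 TPM (Tom+) in tumor #1 and 108 (Tom-) and 87.9 TPM (Tom+) in tumor #2 (0.39, SE 0.40, adjusted p = 0.936 from limma). Nfatc1, a factor downstream of calcium signaling, was at 4.71 (Tom-) and 6.24 TPM (Tom+) in tumor #1 and 7.50 (Tom-) and 9.36 TPM (Tom+) in tumor #2 (0.31, SE 0.19, adjusted p = 0.936). Between the tumors, 13 of 17 lay higher in tumor #2 without overlap (44.8% of all tested genes) and 3 lower (23.7%), and with trimmed-mean scaling these counts were 7 (29.8%) and 5 (39.3%). Lef1 and Sox4, both known from B cell progenitors, were lower in tumor #2. Lef1 was at 18.4 TPM in both fractions of tumor #1, against 0.332 (Tom-) and 0.254 TPM (Tom+) in tumor #2, a log2 difference of -3.91. Sox4 was at 14.9 (Tom-) and 16.9 TPM (Tom+) in tumor #1 and 5.58 (Tom-) and 2.94 TPM (Tom+) in tumor #2 (-1.73). Other genes of B cell progenitors were higher in tumor #2, namely the recombinase genes Rag1, at 0.613 (Tom-) and 1.17 TPM (Tom+) in tumor #1 and 3.61 (Tom-) and 2.81 TPM (Tom+) in tumor #2, and Rag2, at 0.196 (Tom-) and 0.295 TPM (Tom+) in tumor #1 and 4.43 (Tom-) and 2.68 TPM (Tom+) in tumor #2.

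Of 12 genes that Pax5 represses, 7 were above the limit for testing. In Tom+ cells of both mice 2 were higher (21.6% of all tested genes) and 0 lower (29.5%), and 0 had a p-value below 0.05 before adjustment. Between the tumors, 2 of 7 lay higher in tumor #2 without overlap (44.8% of all tested genes) and 1 lower (23.7%). The median log2 difference was 0.69, which is the value of Notch1, beside 0.69 for the factors and 0.20 for all tested genes. By Tom fraction this median was 0.755 in Tom- and 0.101 in Tom+ cells, against 0.706 and 0.575 for the factors. With trimmed-mean scaling the counts were 2 (29.8%) and 3 (39.3%), and the median was 0.42. Csf1r, the receptor of macrophage growth factor, Cd28 of T cells and Ccl3 stayed at or below 0.135 TPM in all libraries. Prdm1 stayed at or below 0.570 TPM, Grap2 at or below 1.21 TPM and Sdc1 at or below 1.95 TPM. Flt3 reached 1.94 TPM in Tom+ cells of tumor #2. Xbp1 and Emb stood higher, with Xbp1 between 10.6 and 21.2 TPM and Emb at 9.11 TPM or more in every library. Notch1, which drives T cell fate, was at 2.55 (Tom-) and 5.10 TPM (Tom+) in tumor #1 and 13.5 (Tom-) and 2.89 TPM (Tom+) in tumor #2, with no shared direction. Ccr2, a chemokine receptor of monocytes, was at 0.0235 TPM and listed at 0 in tumor #1 and was at 1.83 and 2.35 TPM in tumor #2. Jchain, a gene of antibody secretion that Pax5 holds down in B cells, was at 0.330 (Tom-) and 1.72 TPM (Tom+) in tumor #1 and 1.24 (Tom-) and 209 TPM (Tom+) in tumor #2 (log2 difference 3.79, SE 1.55, adjusted p = 0.936). The library with the high Jchain level, Tom+ cells of tumor #2, had 35.8% less Pax5 than its Tom- partner. By TPM it had more Pax5 than either library of tumor #1, and with trimmed-mean scaling the tumors overlapped for Pax5. Whether the Pax5 level bears on that of Jchain was not tested. What part plasma cell transcripts have in the differences of tumor #2 was not tested.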

How the data were processed

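Per the study's methods and the labels, the authors trimmed single reads with Cutadapt and estimated abundances with Salmon 1.9 against GRCm38 transcripts, and the deposited table gives TPM per gene, without read numbers. How transcripts were summed to genes is not given in the sources used here, and the annotation release that the methods name was not used here. Symbols and positions were taken from GENCODE M21 (GRCm38), in which 34652 of the 34866 identifiers were found, and promoter windows from RefSeq (GRCm38.p6).

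limma 3.58.1 (R 4.3.3) was run on log2(TPM + 1), a scale that lessens differences between low values, with Tom status and mouse as terms, a variance trend and two-sided p-values. The prior had 2.21 degrees of freedom and each gene 1. The edgeR test of the study needs counts and was not run. Same-numbered libraries came from the same mouse, and their deviations from the group means were correlated over genes, which are not independent replicates (Pearson's r = 0.626, Spearman's rho = 0.669). The fit was also run on simulated data whose known changes were larger than any difference of the factors between Tom fractions. That run does not show whether differences of their size would be found.

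The factors and gene lists were chosen with earlier results of these data known. Within each list, genes past the threshold, the 2 with the largest difference between Tom fractions and the 2 with the largest between tumors were named. Other names were chosen after their values were seen. Alternatives were a fit without the mouse block, other pseudocounts, filters, scalings and priors, each mouse left out and each Tom fraction alone. Values of some listed genes are not reported here.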

Additional observations from a re-analysis of the deposited data

Results flagged for a closer look

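For 3 of the 10 factors the Tom+ and Tom- cells differed in opposite directions in the 2 mice, and with 1 pair per mouse this difference between the mice was not tested. The effect in tumor #2 minus that in tumor #1, on the log2 scale, was -0.88 for Pax5 (0.24 in tumor #1 and -0.64 in tumor #2), -0.31 for Tcf3 (0.022 and -0.29) and -0.54 for Pou2f2 (0.36 and -0.18). Opposite directions, ties included, were found for 48.8% of all tested genes, so 3 of 10 is not above that share.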

How the results depend on the processing

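Of 399 recomputed values, 350 stayed within the limit set for a change, 37 moved beyond it and 12 changed sign. The limit was a spread over libraries, mice or Tom fractions, and for counts a bound on their ratio. Tom fractions of the same mouse are not replicates. Values from a single Tom fraction, or with a mouse left out, could only change sign. Other fits and filters leave the log2 differences of the factors as they were, and a constant scaling leaves their ratios. The 350 is therefore no measure of robustness. No factor passed an adjusted p-value of 0.05 in limma under any fitted alternative. Without the replicate block for the mouse, 0 genes passed as well, and 140 genes had a p-value below 0.05 before adjustment against 530 with it. With either mouse left out, 1 pair remained, which gives values and no test, and the difference between Tom fractions then ranged from -0.64 to 0.24 for Pax5, from -0.29 to 0.022 for Tcf3 (both above 0 without tumor #2) and from -0.18 to 0.36 for Pou2f2 (below 0 without tumor #1).

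With trimmed-mean scaling, the tumor difference of Tcf3 was -0.029 and that of Pou2af1 -0.019, and the median tumor difference was -0.011 for the relatives and partners, 0.25 for the other B cell factors and 1.01 for the activated genes. With quantile normalization these medians were -0.031 for the relatives and 0.27 for the other factors, whose median between Tom fractions was 0.0027. Without a filter, the other factors had medians of 0.069 between Tom fractions and 0.37 between tumors, the activated genes -0.18 between Tom fractions and the genes repressed by Pax5 0.21 between tumors. With immunoglobulin genes left out, the median of the other factors between Tom fractions was 0.020. With protein-coding nuclear genes only, Ikzf3 differed by 0.0032 between Tom fractions, the other factors had medians of 0.044 between Tom fractions and 0.66 between tumors, and the activated genes 1.47 between tumors. The smaller total then raised the mean levels by construction, to 636.1 TPM for Pax5, 87.3 for Ebf1, 70.9 for Tcf3, 50.5 for Spi1, 112.4 for Spib, 193.1 for Ikzf1, 146.5 for Ikzf3, 15.6 for Foxo1, 313.8 for Pou2af1 and 26.6 for Pou2f2. Trimmed-mean scaling shifts the tumor differences of all genes by nearly the same amount, also by construction. Its divisors were 0.883 (Tom-) and 0.896 (Tom+) in tumor #1 and 1.14 (Tom-) and 1.11 (Tom+) in tumor #2. For the remaining values the cause was not tested. Since TPM keeps no read numbers, what depth limits could not be assessed.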
